A study of Mus musculus with 40 samples.

Results

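Podocytes are the epithelial cells that wrap the capillaries of the kidney glomerulus, and 8 genes known for their function there were followed across a TCDD dose series in bulk mouse kidney tissue. The genes were taken by name: Nphs1, Magi2 and Plce1 of the slit diaphragm and its signalling, Podxl and Ptpro of the cell surface, Synpo of the actin cytoskeleton, and Wt1 and Cdkn1c of the nucleus. All 8 were found among 55359 Ensembl gene identifiers, and all 8 passed the low-count filter that left 17345 genes for testing. The compound, 2,3,7,8-tetrachlorodibenzo-p-dioxin, stays long in the body and activates AhR, the aryl hydrocarbon receptor, which regulates transcription once bound. Right kidneys came from 40 male C57BL/6 mice (C57BL/6NCrl in the study's design text), 5 in each of 8 groups. Vehicle mice received sesame oil by oral gavage, and the other groups received TCDD at 0.03, 0.1, 0.3, 1, 3, 10 or 30 µg/kg per gavage. There were 7 gavages at 4-day intervals over 28 days, so mice were 30 days old at the start and 58 days old at the end. All mice were intact animals of one strain, with no transgene or deletion in the labels, and each library is from about 100 mg of tissue of 1 kidney.

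Podocytes send out interlocking foot processes, and the gap between neighbouring processes is bridged by the slit diaphragm, a specialised cell junction that forms part of the filtration barrier. Nephrin (Nphs1) is a core component of that junction, which is tied to an actin skeleton inside the process. A negatively charged coat of podocalyxin (Podxl) helps hold the foot processes apart. Mature podocytes rarely divide, and their identity depends on transcription factors such as WT1. Ligand-bound AhR is known to bind DNA at sites that hold the core motif GCGTG, as in the regulatory region of Cyp1a1.

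The 250 bases before the transcription start are shown for Nphs1 and Ptpro, because these genes varied together between kidneys, and for Magi2, because it had the smallest trend over dose. The sequences are from RefSeq on build GRCm38.p6, all on the plus strand and written from 5′ to 3′. Capitals mark GCGTG or its reverse complement CACGC, so both strands were searched and no other motif was.
Nphs1, chr7:30459808-30460057: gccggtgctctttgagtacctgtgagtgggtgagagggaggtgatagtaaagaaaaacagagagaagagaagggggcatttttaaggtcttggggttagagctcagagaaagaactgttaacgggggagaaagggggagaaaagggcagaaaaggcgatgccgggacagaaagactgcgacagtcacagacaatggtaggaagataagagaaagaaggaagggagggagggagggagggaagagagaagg
Ptpro, chr6:137252049-137252298: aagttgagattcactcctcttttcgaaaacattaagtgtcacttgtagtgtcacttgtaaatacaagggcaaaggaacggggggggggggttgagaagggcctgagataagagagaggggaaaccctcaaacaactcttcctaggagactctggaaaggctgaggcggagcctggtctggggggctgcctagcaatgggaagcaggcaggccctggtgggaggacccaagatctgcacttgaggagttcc
Magi2, chr5:19226796-19227045: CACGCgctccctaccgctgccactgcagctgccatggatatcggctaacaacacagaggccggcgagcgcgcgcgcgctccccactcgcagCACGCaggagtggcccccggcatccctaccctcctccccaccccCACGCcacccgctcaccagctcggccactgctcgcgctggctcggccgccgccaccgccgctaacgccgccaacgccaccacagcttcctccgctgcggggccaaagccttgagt
The Nphs1 and Ptpro windows held 0 matches, as did that of Plce1 (chr19:38523947-38524196). The Magi2 window held 3 matches, while the window of its second listed start (chr5:19907268-19907517) held 0. The window of Cyp1a1 (chr9:57697363-57697612), the classical AhR target, held 1. Of 32851 promoter windows of the same length, 28.2% held at least 1 match. Windows were at hand for 4 of the 8 genes. A match here is a description of letters and not a measured binding site.

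The libraries held 15278423 to 25575317 gene counts each. Across the 40 libraries the lowest count for any of the 8 genes was 92 (Plce1) and the highest was 8243 (Podxl). Levels are given as CPM, the gene's counts scaled to the library's total gene count after correction with TMM factors. Podocytes are a small part of a whole kidney, and in such bulk tissue more cells of a type and more RNA per cell cannot be told apart. The dose labels were checked with Cyp1a1, which rose from 2.37 ± 1.254 CPM (SD, n = 5) in vehicle kidneys to 24.7 ± 6.37 at 0.3 µg/kg, 99.4 ± 12.1 at 1 µg/kg and 2537 ± 436 at 30 µg/kg.

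All 8 podocyte genes were detected in every library. Podxl was the most abundant of the 8 genes in vehicle kidneys per exonic length, at 34.9 ± 4.46 CPM per kb (SD, n = 5), which lay at percentile 92.1 of the tested genes. Podxl is also known in endothelial cells, so its level is not that of podocytes alone. Cdkn1c followed with 6.04 ± 1.10 CPM per kb and Synpo with 5.84 ± 1.08. The Cdkn1c value is too low, because unstranded counting leaves out reads in exons shared with an opposite-strand gene. The vehicle mean of Cdkn1c was 12.3 CPM in these counts and 25.5 CPM in the deposited column for the sense strand. That column can also hold reads of the opposite-strand gene, because the libraries do not mark strand. Both limits apply in part to Nphs1 as well. Nphs1 was at 2.96 ± 0.76, Ptpro at 2.09 ± 0.57 and Wt1 at 1.85 ± 0.31. Magi2 at 0.967 ± 0.24 and Plce1 at 0.438 ± 0.074 CPM per kb were the lowest.

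**Figure D1:**
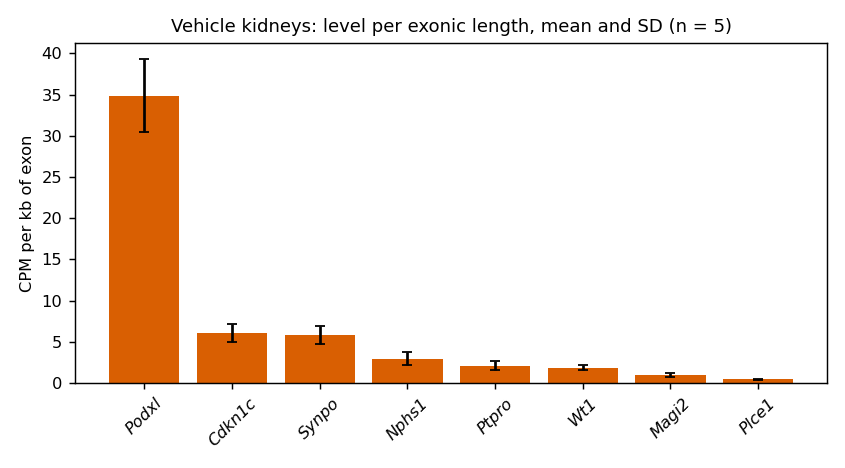
Level of the 8 podocyte genes in vehicle kidneys, in CPM per kb of exon on a linear axis, as the mean and SD of 5 libraries. Podxl stands at 34.9 CPM per kb, and Magi2 and Plce1 are under 1. The bars of Cdkn1c and Nphs1 are too low, because reads in bases shared with opposite-strand genes are left out.

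The 10 µg/kg kidneys had 5 of the 8 podocyte genes called higher, those given 30 µg/kg had 3, and no gene of the 8 was called lower at any dose. The 5 called higher at 10 µg/kg (edgeR quasi-likelihood test, Benjamini-Hochberg adjusted p under 0.05 over 17345 genes) were Podxl, Synpo, Ptpro, Plce1 and Nphs1. Of all tested genes, 3.82% were called higher at that dose. Those called higher at 30 µg/kg were Podxl, Synpo and Plce1, against 8.39% of all genes. Wt1, Cdkn1c and Magi2 were called at neither dose. The median log2 fold change of the 8 genes was 0.58 at 10 µg/kg and 0.34 at 30 µg/kg, beside -0.0055 and 0.011 over all tested genes. From 0.03 to 3 µg/kg, 0 of 8 were called by edgeR, by DESeq2 or by limma-voom. The number with an unadjusted p under 0.05 was 0 at 0.03 and 0.1 µg/kg, 1 at 0.3 µg/kg, 1 at 1 µg/kg and 3 at 3 µg/kg. Of all 17345 genes, 983, 960, 908, 1231 and 1553 had an unadjusted p under 0.05 at these doses, from 0.03 to 3 µg/kg. By adjusted p, 0% of all genes were called higher at 0.03 and 0.1 µg/kg, 0.00577% at 0.3 µg/kg, 0.507% at 1 µg/kg and 1.03% at 3 µg/kg. The 10 µg/kg count rested in part on single libraries: it was 3 without vehicle replicate 1, without vehicle replicate 2, or without replicate 5 of the 10 µg/kg group. It was also 3 without replicates 3 and 4 of that group, whose deposited files carry an extra letter in their names. DESeq2 and limma-voom each called 5 at 10 µg/kg and 3 at 30 µg/kg, and a fit to the 10 libraries of the vehicle and 30 µg/kg groups alone called 1. Over all genes, DESeq2 called 738 higher at 10 µg/kg and 1537 at 30 µg/kg, of 34307. The limma-voom numbers were 874 and 1008, of 17345.

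**Figure D2:**
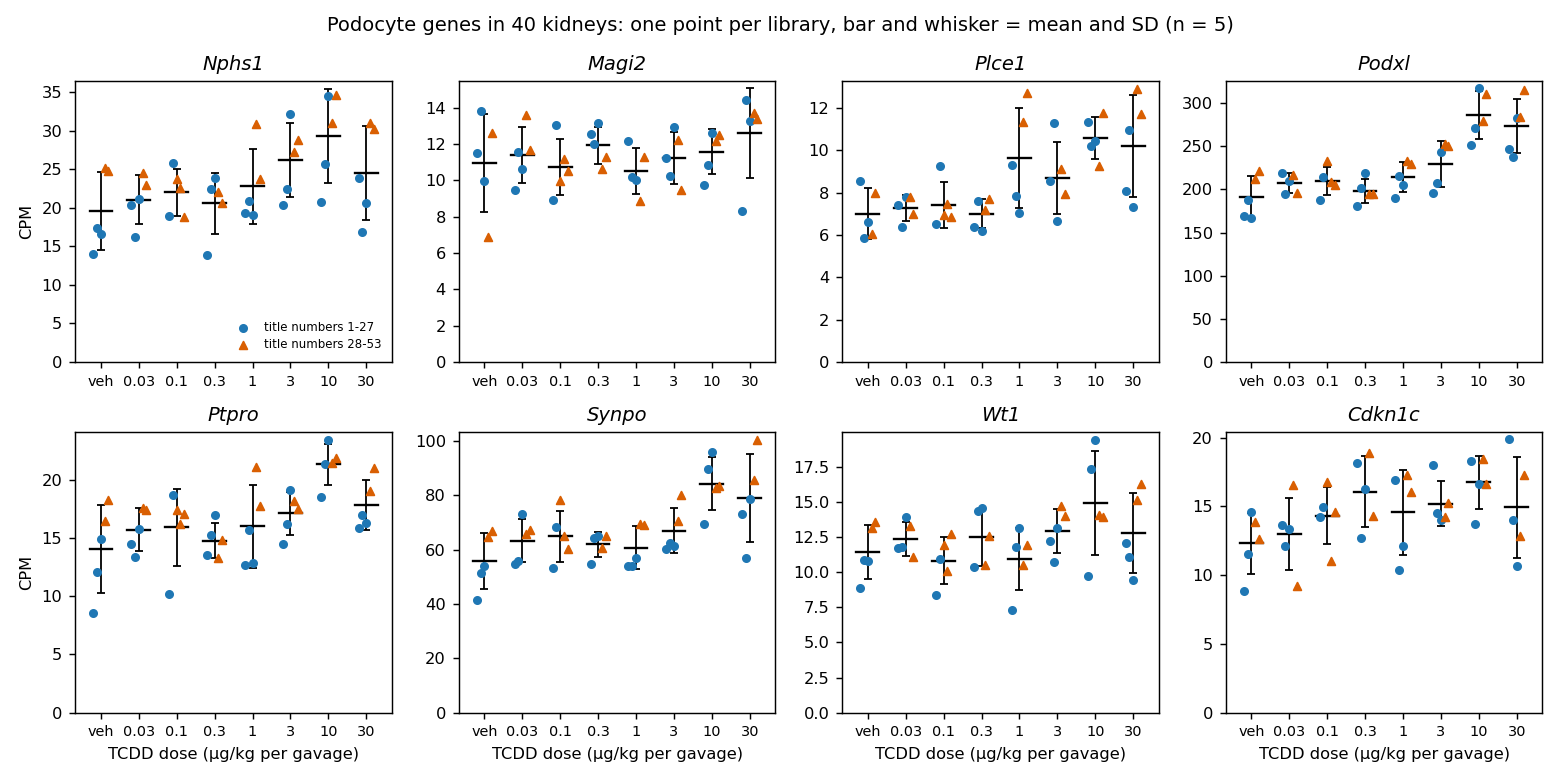
CPM of each of the 8 podocyte genes in 40 kidneys by TCDD dose in µg/kg per gavage, 1 point per library, with bars for the mean and whiskers for the SD (n = 5). Marker shape gives the run of sample title numbers, 1 to 27 or 28 to 53. Podxl at 10 and 30 µg/kg lies wholly above vehicle, while the Magi2 groups overlap throughout.

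Among the slit diaphragm genes, Nphs1 encodes nephrin, the adhesion protein that spans the slit. The 5 vehicle kidneys had Nphs1 levels of 14.1, 17.4, 16.6, 25.1 and 24.8 CPM. The 10 µg/kg kidneys had 20.7, 25.6, 34.5, 31.0 and 34.6 CPM, and at 30 µg/kg 23.8, 16.9, 20.5, 31.0 and 30.1 CPM. In 4 of 5 kidneys at 10 µg/kg the level was above every vehicle kidney, and at 30 µg/kg in 2 of 5, so the groups overlapped at both doses. The log2 change from vehicle was 0.58 ± 0.18 (SE; edgeR adjusted p = 0.0486) at 10 µg/kg and 0.33 ± 0.18 (edgeR adjusted p = 0.235) at 30 µg/kg. The 10 µg/kg call was close to the threshold: it was lost in 7 of 10 fits that left out 1 library. Without the pair of libraries with marked file names the value was 0.47 (edgeR adjusted p = 0.256).

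Plce1 encodes phospholipase C epsilon, a signalling enzyme whose loss causes a childhood nephrotic syndrome in people. Its vehicle levels were 8.53, 5.88, 6.61, 6.05 and 7.99 CPM. The 10 µg/kg kidneys had 11.3, 10.2, 10.4, 9.26 and 11.7 CPM, all above the highest vehicle kidney. The 30 µg/kg kidneys split, with 8.07 and 7.32 CPM in replicates 1 and 3 and 11.0, 12.9 and 11.7 CPM in replicates 2, 4 and 5. In log2 terms the change was 0.59 ± 0.16 (edgeR adjusted p = 0.0166) at 10 µg/kg and 0.55 ± 0.16 (edgeR adjusted p = 0.0133) at 30 µg/kg. Already at 1 µg/kg, 3 of 5 kidneys lay above every vehicle kidney, at a range of 7.02 to 12.7 CPM over the group (a log2 change of 0.46 ± 0.16, edgeR adjusted p = 0.347).

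Magi2 encodes a scaffold protein that binds nephrin from the inside of the cell. Its levels were 11.5, 13.8, 9.98, 6.90 and 12.6 CPM in vehicle kidneys and 9.74, 10.9, 12.6, 12.2 and 12.5 CPM at 10 µg/kg, so the dosed kidneys lay within the vehicle range. In the 30 µg/kg group 4 kidneys had 13.3 to 14.4 CPM and replicate 1 had 8.29 CPM. The log2 fold changes of 0.075 ± 0.15 (edgeR adjusted p = 0.881) and 0.20 ± 0.15 (edgeR adjusted p = 0.407) did not pass. The sign at 10 µg/kg was not stable, at -0.049 without vehicle replicate 4. The difference between Magi2 and the other genes was not tested.

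At the cell surface, Podxl had the lowest adjusted p of the 8 at both doses. Vehicle kidneys held 169, 188, 167, 212 and 221 CPM. Kidneys at 10 µg/kg held 252, 271, 318, 279 and 310.2 CPM, and kidneys at 30 µg/kg held 247, 237, 282, 284 and 315 CPM. Every kidney of both groups was above every vehicle kidney, an ordering that 4.32% of all tested genes showed at 10 µg/kg and 3.59% at 30 µg/kg. In log2 terms the change was 0.58 ± 0.084 (edgeR adjusted p = 3.55e-06) at 10 µg/kg and 0.51 ± 0.084 (edgeR adjusted p = 1.73e-05) at 30 µg/kg. Both Podxl calls held under all alternatives that were run, with adjusted p up to 0.0306. At 3 µg/kg the level was 229.8 ± 26.5 CPM (SD, n = 5), with 3 of 5 kidneys above all vehicle kidneys, and the log2 fold change of 0.26 ± 0.084 did not pass (edgeR adjusted p = 0.152).

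Ptpro encodes a receptor tyrosine phosphatase of the foot process membrane, also called GLEPP1. Its vehicle levels spread widely, at 8.59, 12.1, 14.9, 16.5 and 18.2 CPM. At 10 µg/kg they were 18.5, 21.4, 23.4, 21.4 and 21.9 CPM, all above vehicle, and at 30 µg/kg 15.9, 17.0, 16.3, 19.0 and 21.0 CPM, where only 2 of 5 were above the highest vehicle kidney. In log2 terms the change was 0.60 ± 0.15 (edgeR adjusted p = 0.00755) at 10 µg/kg and 0.35 ± 0.15 (edgeR adjusted p = 0.112) at 30 µg/kg. Without replicates 3 and 4 of the 10 µg/kg group the 10 µg/kg value was 0.55 (edgeR adjusted p = 0.061).

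Synpo encodes synaptopodin, an actin-associated protein that supports the foot process skeleton. Its levels were 41.5, 51.6, 54.1, 64.6 and 66.9 CPM in vehicle kidneys. At 10 µg/kg they were 69.6, 89.9, 96.0, 82.7 and 83.4 CPM, all above vehicle, and at 30 µg/kg 73.3, 56.9, 78.8, 85.8 and 100.5 CPM, with 4 of 5 above vehicle. In log2 terms the change was 0.60 ± 0.12 (edgeR adjusted p = 0.00134) at 10 µg/kg and 0.51 ± 0.12 (edgeR adjusted p = 0.00337) at 30 µg/kg. In the fit to the vehicle and 30 µg/kg libraries alone the latter was 0.51 with an edgeR adjusted p of 0.0693.

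Of the nuclear proteins, WT1 is the zinc-finger transcription factor that maintains the podocyte state. Wt1 levels were 8.87, 10.8, 10.8, 13.1 and 13.5 CPM in vehicle kidneys, 9.69, 17.3, 19.4, 14.1 and 13.9 CPM at 10 µg/kg, and 12.0, 11.1, 9.42, 15.2 and 16.3 CPM at 30 µg/kg. The groups overlapped at both doses, although 4 of 5 kidneys at 10 µg/kg were above all vehicle kidneys. The log2 fold change of 0.38 ± 0.16 at 10 µg/kg (edgeR adjusted p = 0.207) and of 0.17 ± 0.16 at 30 µg/kg (edgeR adjusted p = 0.55) did not pass.

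Cdkn1c encodes p57, an inhibitor of cyclin-dependent kinases that marks non-dividing podocytes. Its levels were 8.87, 11.5, 14.6, 13.9 and 12.6 CPM in vehicle kidneys, 18.3, 13.7, 16.6, 18.5 and 16.6 CPM at 10 µg/kg and 19.9, 14.0, 10.6, 12.9 and 17.3 CPM at 30 µg/kg. In log2 terms the change was 0.44 ± 0.16 (edgeR adjusted p = 0.101) at 10 µg/kg and 0.28 ± 0.16 (edgeR adjusted p = 0.244) at 30 µg/kg. These unstranded counts are incomplete for Cdkn1c, because 30.65% of its exonic bases are shared with Gm44732 on the opposite strand in the GENCODE M21 annotation and unstranded counting leaves such reads out. In the deposited column for the sense strand, Cdkn1c summed to 125% of its unstranded counts, where 6 of the 8 genes came to 48.9 to 51.3%. Scaled to its own column total, the Cdkn1c level in that column was 25.5 ± 4.23 CPM (SD, n = 5) in vehicle kidneys, 39.2 ± 4.99 at 10 µg/kg and 38.0 ± 7.71 at 30 µg/kg. On that column Cdkn1c was called at both doses, at a log2 change of 0.59 ± 0.13 (edgeR adjusted p = 0.00165) at 10 µg/kg and 0.53 ± 0.13 (edgeR adjusted p = 0.0023) at 30 µg/kg. The libraries do not mark strand. Reads of Gm44732 in the shared bases can therefore enter this column and cannot be told from Cdkn1c reads there. In single kidneys the values of this column were 21.7, 23.4, 23.1, 32.3 and 26.7 CPM in vehicle and 32.9, 34.9, 44.0, 43.0 and 41.3 CPM at 10 µg/kg, so the groups did not overlap there. In the 30 µg/kg group they were 38.6, 39.6, 25.6, 39.3 and 46.9 CPM, and replicate 3 fell within the vehicle range.

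The same limit applies in part to Nphs1, which shares 11.78% of its exonic bases with opposite-strand genes, chiefly Nphs1os, and whose sense column held 66.1% of its unstranded counts. On the sense column the Nphs1 log2 fold change at 10 µg/kg was 0.53 ± 0.18 (edgeR adjusted p = 0.107), so the call at that dose was lost. Reads of the opposite-strand genes can enter this column for Nphs1 in the same way. Plce1, with no shared exonic bases, had a value of 0.58 ± 0.20 (edgeR adjusted p = 0.116) at 10 µg/kg on that column, which holds 48.9% as many counts of this gene, and 0.63 ± 0.20 (edgeR adjusted p = 0.031) at 30 µg/kg. The sense column called 4 of the 8 genes at 10 µg/kg and 4 at 30 µg/kg. Of 17009 genes tested on that column, 505 were called higher at 10 µg/kg and 1235 at 30 µg/kg.

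**Figure D3:**
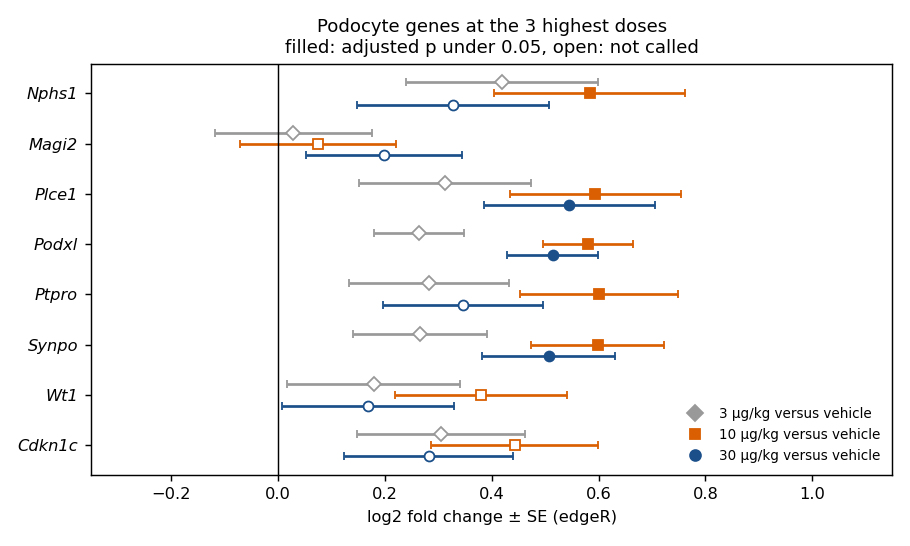
log2 fold change against vehicle with its SE for the 8 podocyte genes at 3, 10 and 30 µg/kg, from edgeR on the unstranded counts, with filled symbols for an adjusted p under 0.05. The 10 µg/kg values are above the 30 µg/kg values for 7 genes, and Magi2 is the exception.

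The group mean was highest at 10 µg/kg for 7 of the 8 genes and highest at 30 µg/kg for Magi2. The step from 10 to 30 µg/kg was negative for 7 genes, from -0.26 ± 0.18 for Nphs1 to -0.049 ± 0.16 for Plce1 on the log2 scale, and 0.12 ± 0.15 for Magi2. Of these steps 0 passed (edgeR), 0 had an unadjusted p under 0.05, and DESeq2 and limma-voom called 0, against 1.52% of all genes called lower and 1.19% called higher in that comparison. With the groups of each gene ordered by mean, all 7 neighbouring pairs of groups overlapped in range for every one of the 8 genes, so no adjacent ranks were separated. Vehicle was the lowest group for Nphs1, Podxl, Ptpro, Synpo and Cdkn1c.

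Across dose ranks from 0 (vehicle) to 7 (30 µg/kg), 6 of 8 genes had a rising trend, where 11% of all tested genes did (8.84% had a falling one). The slopes per dose rank on the log2 scale were 0.091 ± 0.018 for Plce1 (edgeR adjusted p = 0.000113), 0.077 ± 0.010 for Podxl (edgeR adjusted p = 1.44e-07), 0.068 ± 0.014 for Synpo (edgeR adjusted p = 0.00042), 0.067 ± 0.019 for Nphs1 (edgeR adjusted p = 0.00957) and 0.061 ± 0.017 for Ptpro (edgeR adjusted p = 0.00612). The trend of Cdkn1c, at 0.047 ± 0.017, was just past the threshold (edgeR adjusted p = 0.0484) and was lost in 25 of 40 fits that left out 1 library, although on the sense column it was 0.067 ± 0.014 (edgeR adjusted p = 0.000339). Wt1 (0.037 ± 0.018, edgeR adjusted p = 0.144) and Magi2 (0.018 ± 0.015, edgeR adjusted p = 0.461) did not pass.

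Kidneys of one dose group differed from each other in these genes as well. The sample titles carry numbers in a run from 1 to 27 (23 libraries) and a run from 28 to 53 (17 libraries), and every dose group holds libraries of both. The labels do not say what the numbers stand for, and this comparison was chosen after the values were seen. With dose in the model, the later run was higher for Nphs1 (log2 difference 0.31 ± 0.073, edgeR adjusted p = 0.0298) and for Synpo (0.22 ± 0.051, edgeR adjusted p = 0.0297), where 0.427% of all genes were called higher. The values for Ptpro (0.23 ± 0.068, edgeR adjusted p = 0.0906) and Podxl (0.14 ± 0.038, edgeR adjusted p = 0.0791) did not pass, nor did those of the other 4 genes. In vehicle kidneys Nphs1 averaged 16.0 CPM over 3 libraries of the earlier run and 24.9 CPM over 2 of the later run, with no overlap. Nphs1, Synpo and Ptpro each had the higher mean in the later run in 7 of 8 dose groups, Podxl in 6 and Magi2 in 3. Plce1, Wt1 and Cdkn1c each had it in 5. All later libraries lay above all earlier ones in 4 of 8 groups for Nphs1, Synpo, Ptpro and Podxl. How many of all genes had such orders was not counted. With the run as a term in the model the dose calls among the 8 genes numbered 5 at 10 µg/kg, 3 at 30 µg/kg and 6 for the trend, the same numbers as without it. Of all 17345 genes, 694, 1490 and 1958 were called higher in those fits, in that order. Within the runs, 4 of the 8 genes were called at 10 µg/kg among title numbers 1 to 27 and 1 among 28 to 53, where only 2 libraries per group remained in most groups. Calls over all genes were fewer in the later run too, at 164 of 17556 called higher against 476 of 18082 in the earlier run. The Podxl log2 fold change at 10 µg/kg was 0.68 in the earlier and 0.44 in the later run, and past the threshold in both. Synpo was at 0.79 in the earlier run and 0.34 in the later, past the threshold in the earlier run only, and whether the runs differed in response was not tested. In the 30 µg/kg group these genes had nearer values in the runs, at 0.55 and 0.47 for Podxl and 0.50 and 0.51 for Synpo.

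After removal of the dose group means, 5 of the 8 genes rose and fell together from kidney to kidney. Log2 CPM was compared over the 40 libraries for all 28 pairs of genes, with permutation within groups and adjustment over the 28 pairs. The 10 pairs that passed were exactly those among Nphs1, Podxl, Ptpro, Synpo and Wt1, with Pearson r from 0.58 (Nphs1 with Wt1) to 0.82 (Nphs1 with Podxl). For Nphs1 with Podxl, Spearman's rho was 0.80 and the permutation p was 1e-05 for each, the smallest that 100000 permutations can give. Without the 2 libraries farthest from the median of Nphs1 the Pearson r was 0.80. For Nphs1 with Wt1 the permutation p was 0.00066 (adjusted p = 0.00185), Spearman's rho was 0.56 (permutation p = 0.00122), and r without 2 libraries was 0.56. Plce1, Cdkn1c and Magi2 had 0 pairs that passed, and the lowest value was -0.25 for Cdkn1c with Magi2 (permutation p = 0.188). These correlations used the unstranded counts, which are incomplete for Cdkn1c and in part for Nphs1. The libraries share their depth and the piece of kidney that was taken between all genes, and the part of that in these correlations was not tested. With the means of the title-number runs removed as well, 9 pairs passed, and with a score for medullary minus cortical genes removed, 10 passed. Plce1 thus had a dose trend without a detected link to the 5 genes, and Wt1 had the link without a called dose response.

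**Figure D4:**
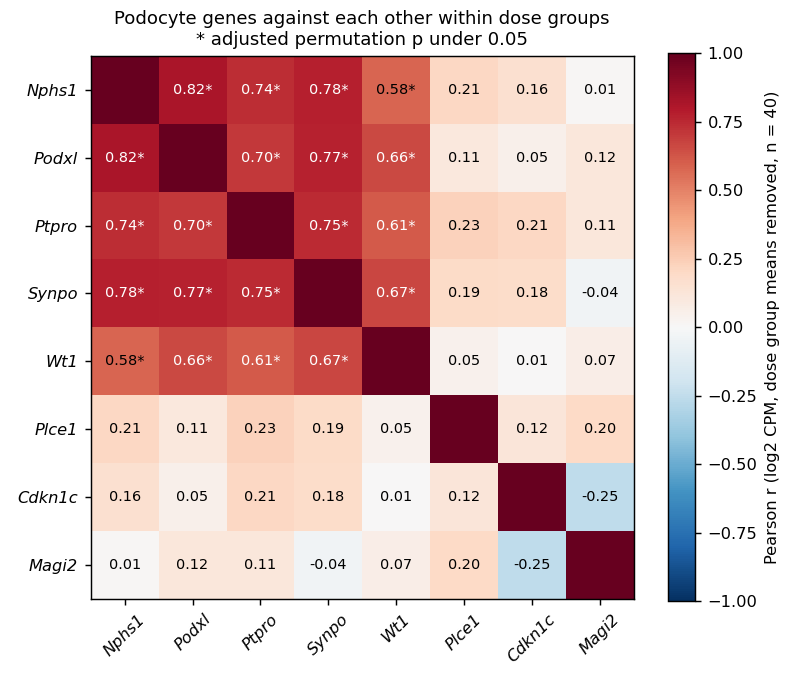
Pearson r between the 8 podocyte genes over 40 libraries, on log2 CPM with dose group means removed, on a colour scale from -1 to 1, with a star for an adjusted permutation p under 0.05. The block of Nphs1, Podxl, Ptpro, Synpo and Wt1 holds all 10 starred pairs.

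A further 68 genes with known roles in podocytes were set out in 5 lists, of which 66 could be tested. Many of them, such as integrins, laminins and actin regulators, are also expressed by other kidney cells, unlike nephrin. At 10 µg/kg, 7 of the 66 (10.6%) were called higher and 0 lower, against 3.82% and 0.997% of all genes. At 30 µg/kg, 12 (18.2%) were called higher and 7 (10.6%) lower, against 8.39% and 7.55%. Their median log2 fold change was 0.089 at 10 µg/kg and 0.11 at 30 µg/kg, below the medians of the 8 genes above, and this difference was not tested. The lower count at 30 µg/kg was larger than at 10 µg/kg, and the fit to the vehicle and 30 µg/kg libraries alone called 6 genes in place of 19.

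In the slit diaphragm list, 4 of 12 tested genes were called higher at 30 µg/kg and 1 lower. Of the genes called higher, 3 are described. Kirrel, encoding the nephrin partner NEPH1, rose by 0.55 ± 0.13 (edgeR adjusted p = 0.00247), and the junction protein gene Tjp1 by 0.36 ± 0.090 (edgeR adjusted p = 0.00378). Crb2, encoding a polarity protein of the slit, rose by 0.71 ± 0.22 (edgeR adjusted p = 0.0242). Pard3, encoding another polarity protein, fell by 0.26 on the log2 scale (edgeR adjusted p = 0.00825).

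In the cytoskeleton list, 2 of 14 genes were called higher at 30 µg/kg and 4 lower. Inf2, encoding a formin, was at 9.07 to 12.2 CPM in vehicle kidneys and 11.5 to 19.3 CPM at 30 µg/kg (a log2 change of 0.53 ± 0.15, edgeR adjusted p = 0.011). Myo1e, encoding an unconventional myosin, rose by 0.35 ± 0.091 (edgeR adjusted p = 0.00453). Arhgap24, Ezr, Cttn and Rhpn1 (the last named after its value was seen), which encode a GTPase-activating protein, ezrin, cortactin and rhophilin, fell by 0.46, 0.22, 0.18 and 0.28 in that order on the log2 scale (edgeR adjusted p of 0.000563, 0.00662, 0.0112 and 0.044). Ezrin is also a well-known protein of the tubular brush border. By dose rank, Myo1e, Inf2, Myh9 and Srgap1 had a rising trend and Ezr, Cttn, Arhgap24 and Palld a falling trend.

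In the transcription factor list 0 of 8 genes were called by edgeR at 10 µg/kg, at 30 µg/kg or for the trend. An unadjusted p under 0.05 was found for 2 of the 8 at 30 µg/kg, where DESeq2 and limma-voom called 0, and for 2 at 10 µg/kg, where limma-voom called 1 and DESeq2 0. Of all 17345 tested genes, 4789 had an unadjusted p under 0.05 at 30 µg/kg and 2728 at 10 µg/kg (edgeR). For the trend, DESeq2 and limma-voom each called 1. These 8 transcription factor genes had a median log2 change of 0.42 at 10 µg/kg and 0.30 at 30 µg/kg.

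In the adhesion and basement membrane list, 1 of 14 tested genes was called higher and 1 lower at 30 µg/kg. Lamb2, encoding a laminin chain of the glomerular basement membrane, rose by 0.26 ± 0.090 (edgeR adjusted p = 0.0377), and Col4a4, encoding a type IV collagen chain, fell by 0.34 on the log2 scale (edgeR adjusted p = 0.000306). Nid1, encoding the linker protein nidogen, was called at 10 µg/kg (0.56 ± 0.14, edgeR adjusted p = 0.0114) and for the trend, and its 30 µg/kg value of 0.35 ± 0.14 did not pass (edgeR adjusted p = 0.0882). In the list of secreted and surface proteins, 5 of 18 genes were called higher and 1 lower at 30 µg/kg. Thsd7a and Pla2r1 encode the autoantigens of membranous nephropathy. Pla2r1 was at 7.29 to 9.47 CPM in vehicle kidneys, 10.7 to 17.0 CPM at 10 µg/kg and 9.49 to 16.7 CPM at 30 µg/kg. The 10 µg/kg kidneys all lay above vehicle, an ordering that 4.32% of all tested genes showed. At 30 µg/kg the lowest kidney, at 9.492 CPM, was practically level with the highest vehicle kidney, at 9.468 CPM. The Pla2r1 log2 fold change was 0.71 ± 0.14 (edgeR adjusted p = 0.000642) at 10 µg/kg and 0.57 ± 0.14 (edgeR adjusted p = 0.00391) at 30 µg/kg. Thsd7a had 0.66 ± 0.17 (edgeR adjusted p = 0.0126) and 0.53 ± 0.17 (edgeR adjusted p = 0.0278) at the same doses. Tyro3, encoding a receptor tyrosine kinase, rose at 30 µg/kg, from 2.55 to 3.88 CPM over vehicle kidneys to 4.32 to 8.87 CPM (a log2 change of 1.11 ± 0.22, edgeR adjusted p = 0.000196). Sema3g, encoding a secreted semaphorin, rose by 0.55 ± 0.17 (edgeR adjusted p = 0.0191). The fifth, Spock2, named after its value was seen, rose by 1.22 ± 0.42 (edgeR adjusted p = 0.0426). Htra1, encoding a secreted protease, fell by 0.62 on the log2 scale (edgeR adjusted p = 0.000117).

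Genes of other cells moved in the same kidneys, and their counts stand beside 3.82% of all genes called higher and 0.997% lower at 10 µg/kg, and 8.39% higher and 7.55% lower at 30 µg/kg. The summed level of the 8 podocyte genes ran from 271 to 378 CPM over vehicle kidneys, from 409.6 to 531 at 10 µg/kg and from 379 to 525 at 30 µg/kg. Podxl, also known in endothelial cells, was the largest part of this sum, with a vehicle mean of 191 CPM. Synpo followed with 55.7 CPM, so the sum says little about the other genes. Of 14 endothelial genes, 8 were called higher at 10 µg/kg and 8 at 30 µg/kg, with 0 lower, and their summed level was 772 to 897 CPM in vehicle kidneys, 954 to 1095 at 10 µg/kg and 994 to 1148 at 30 µg/kg. Emcn, encoding the endothelial surface protein endomucin, had a log2 change of 0.73 ± 0.075 (edgeR adjusted p = 2.69e-09) at 10 µg/kg and 0.74 ± 0.076 (edgeR adjusted p = 7.54e-10) at 30 µg/kg. Pecam1 had 0.46 ± 0.091 (edgeR adjusted p = 0.000241) at 30 µg/kg, and Ehd3, known from glomerular endothelium, 0.38 ± 0.11 (edgeR adjusted p = 0.0426) at 10 µg/kg and 0.14 ± 0.11 (edgeR adjusted p = 0.451) at 30 µg/kg. In the glomerular endothelium list of 9 genes, 2 were called higher and 1 lower at 10 µg/kg, and 3 higher and 1 lower at 30 µg/kg. The summed level of this list was 871 to 1123 CPM in vehicle kidneys, 699 to 828.7 CPM at 10 µg/kg and 443 to 1124 CPM at 30 µg/kg. At 10 µg/kg it lay below all vehicle kidneys, while the summed level of the 8 podocyte genes lay above them. A sum is weighted to the genes with the most counts, and single genes of the list did not all fall. Those called higher at 10 µg/kg were Emcn and Ehd3. The 1 called lower was Igfbp5 (named after its value was seen), at a log2 change of -0.65 ± 0.18 (edgeR adjusted p = 0.0313).

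Of 9 mesangial genes 4 (44.4%, against 8.39% of all genes) were called higher at 30 µg/kg, with a summed level of 183 to 224 CPM in vehicle kidneys, 239 to 264 at 10 µg/kg and 190.1 to 266 at 30 µg/kg. Of 9 parietal epithelial genes 5 (55.6%) were called higher, with 192 to 233 CPM in vehicle kidneys, 234 to 298 at 10 µg/kg and 247 to 381 at 30 µg/kg. Of 10 macrophage genes 8 (80%) were called higher at 30 µg/kg, with 218 to 264 CPM in vehicle kidneys, 506 to 983 at 10 µg/kg and 367 to 676 at 30 µg/kg. Of 8 genes of the S3 segment of the proximal tubule, 4 (50%, against 7.55% of all genes) were called lower at 30 µg/kg and 0 higher, with 1709 to 4080 CPM in vehicle kidneys, 3009 to 3876 at 10 µg/kg and 488 to 2995 at 30 µg/kg. No gene of these lists was at 0 in all 40 libraries. A medulla minus cortex score was made from log2 levels standardised per gene. It is the mean over medullary genes minus the mean over proximal tubule (S1-S2 and S3) and distal convoluted tubule genes. The score spanned -1.75 to 0.24 in vehicle kidneys, -0.62 to 0.75 at 10 µg/kg and -1.81 to 1.49 at 30 µg/kg. The S3 genes called lower at 30 µg/kg are part of the score, so it does not measure the sampled piece of kidney alone. The part of these other cell types in the podocyte values was not tested. With the medulla minus cortex score as a covariate, 4 of the 8 podocyte genes were called at 10 µg/kg, 3 at 30 µg/kg and 5 for the trend. Of all 17345 genes, 606, 1415 and 1947 were called higher in these fits, in that order.

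**Figure D5:**
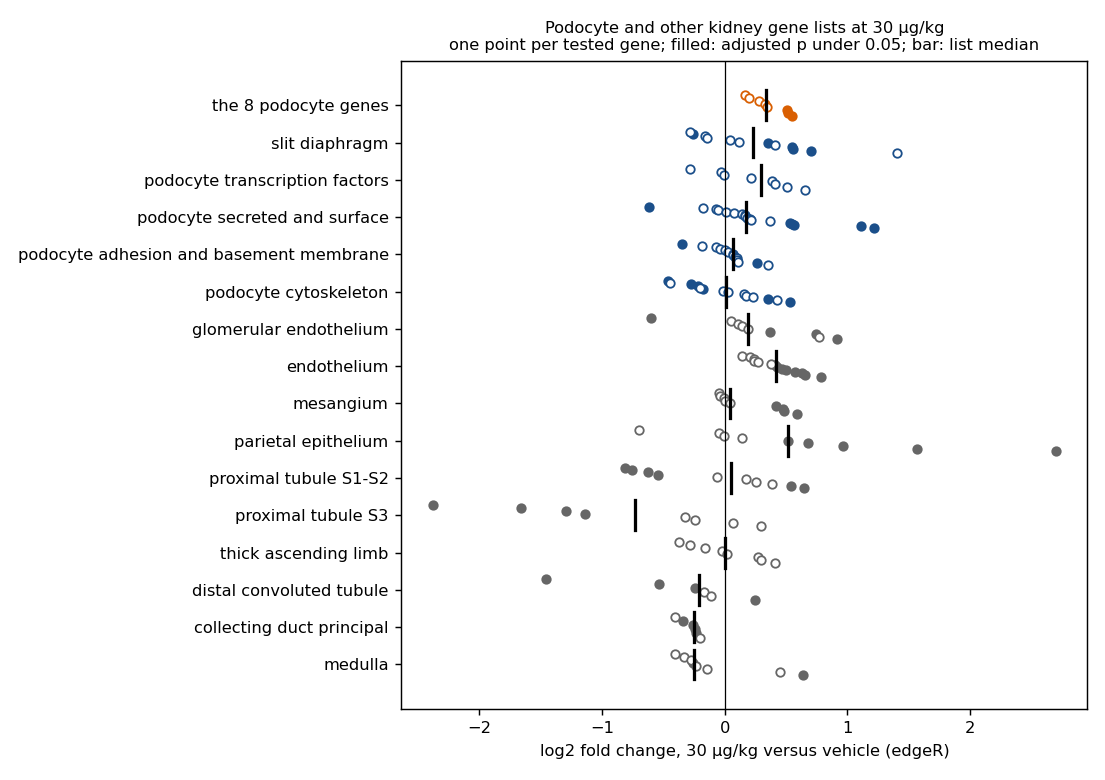
log2 fold change at 30 µg/kg against vehicle for each tested gene of the podocyte lists and of lists for other kidney cells, with filled points for an edgeR adjusted p under 0.05 and a bar at each list's median. The 8 podocyte genes lie between 0.17 and 0.55, and the endothelial genes between 0.14 and 0.78.

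Genes with the most similar pattern were sought by the mean Pearson r with the 8 podocyte genes over the 40 libraries, with dose group means removed, among 17337 other tested genes. The 10 highest included Rusc2 (mean r 0.52), Srgap1, Ddn, Ppip5k1, Slc25a23, Notch3, Syne1, Agrn and Cyfip2 (0.43), and the median over all genes was 0.0031. Srgap1 and Agrn were on the podocyte lists. Rusc2 was at 22.8 ± 6.11 CPM (SD, n = 5) in vehicle kidneys and had a log2 change of 0.50 (edgeR adjusted p = 0.0165) at 10 µg/kg and 0.81 ± 0.13 (edgeR adjusted p = 2.1e-05) at 30 µg/kg. Notch3 had 0.70 (edgeR adjusted p = 0.00491) at 10 µg/kg and 0.55 ± 0.16 (edgeR adjusted p = 0.0153) at 30 µg/kg, and Cyfip2 0.87 (edgeR adjusted p = 3.5e-08) and 1.02 ± 0.10 (edgeR adjusted p = 5.25e-10). Ddn, Ppip5k1, Slc25a23, Syne1, Agrn and Srgap1 were not called at either dose. Of genes on the podocyte lists, Crb2 ranked 37, Thsd7a 249, Tyro3 1039, Kirrel 1135 and Pla2r1 5260. The endothelial genes Pecam1, Ehd3 and Emcn ranked 651, 742 and 8445, so that Pecam1 and Ehd3 stood above Tyro3, Kirrel and Pla2r1. Another gene of the endothelium list, Cdh5 (named after its value was seen), ranked 19 with a mean r of 0.42, above Crb2. Emcn, called higher at 10 and 30 µg/kg, had a mean r of 0.0082 with the podocyte genes once dose was removed.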

How the data were processed

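Bulk RNA sequencing was done on right kidneys of 40 mice in 8 dose groups of 5. RNA came from about 100 mg of frozen tissue. RNA integrity numbers were 7 or more, and paired reads of 150 bp were made, per the labels' protocols. FastQC 0.11.7, Trimmomatic 0.39, STAR 2.7.3a and DESeq2 are named in the submitters' processing notes, with the builds GRCm39 and mm10 and no role for either. The annotation is not given in the sources used here, so gene coordinates are not printed. The authors deposited whole-number gene counts, 1 file per library, with an unstranded and 2 stranded columns, and the unstranded column was used. The summary lines of each file were left out of totals and tests: unmapped reads 1.41 to 2.66%, multimapping 6.98 to 9.70%, no feature 5.28 to 7.27% and ambiguous 5.40 to 5.98% per library. The sense share of 50.4 to 51.0% shows a library that does not mark strand. Names, exonic lengths and overlaps came from GENCODE M21, which named 52083 of 55359 identifiers. The other 3276 held 0.663% of gene counts.

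The test was edgeR 4.0.16 (R 4.3.3, limma 3.58.1), quasi-likelihood with robust estimation, TMM factors (0.966 to 1.09) and filterByExpr, fitted to all 40 libraries with 8 groups. Benjamini-Hochberg adjustment covered 17345 genes, with calls under 0.05. Log2 CPM used a prior count of 2. Alternatives were DESeq2 1.42.0, limma-voom, other scaling and filters, the sense column, covariates, subsets and leaving out each library. The edgeR test was also run on simulated counts, with 50 genes changed at each fold in the 30 µg/kg group. It called 14% of the 1.25-fold, 44% of the 1.5-fold, 64% of the 2-fold and 82% of the 3-fold changes, with 5 false calls. A gene that was not called can therefore have changed by such amounts. Dose groups were taken from the labels, and replicates were numbered in order of deposition. Where nothing says that mice were housed or handled apart, p-values measure the spread between these kidneys. The 8 genes and all lists were chosen with earlier results of these data known. Named genes were the 8, list genes called at 30 µg/kg or with a trend (up to the 4 lowest p per direction and list), Emcn, Pecam1, Ehd3, Cyp1a1 and the 10 genes most alike. Genes that fall under this rule but are not named are not reported here, and they stay in the counts. A few list genes outside this rule are marked as named after their values were seen. Python 3.11.15 was used for correlations and figures.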

Additional observations from a re-analysis of the deposited data

Results flagged for a closer look

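The Magi2 level in replicate 1 of the 30 µg/kg group was 8.29 CPM, far from the other 4 kidneys of that group, the nearest of which had 13.3 CPM. The gap made up 0.815 of the range of the group, above Dixon's critical value of 0.71 for 5 values. Of 64 groups examined (8 genes in 8 dose groups), 1 was marked in this way, where chance gives about 3.2.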

How the results depend on the processing

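Podxl kept both calls and its trend under every alternative run. Counts of the 8 podocyte genes called at 10 µg/kg were 1 with title numbers 28 to 53 only and 3 without the 2 libraries with marked file names, against 5, and 3 to 5 when 1 library was left out. At 30 µg/kg 1 was called in a fit of only the 2 groups, against 3, and 2 to 4 with 1 library left out. The trend count was 3 with title numbers 1 to 27 only, against 6, and 5 to 6 with 1 library left out. Of the other podocyte genes, 6 were called at 30 µg/kg in a fit of only the 2 groups, 4 with title numbers 1 to 27 and 12 with 28 to 53, against 19, and 14 to 24 with 1 library left out. Their trend count was 10 without the 30 µg/kg group, 8 with title numbers 1 to 27 and 13 with 28 to 53, against 21, and 16 to 23 with 1 library left out. These subsets hold fewer libraries, and calls over all genes changed with them. At 10 µg/kg, 164 of 17556 genes were called higher with title numbers 28 to 53 only. Without the 2 libraries with marked file names it was 504 of 18012, against 663 of 17345 with all libraries. At 30 µg/kg, 631 of 15419 were called higher in the fit of only the 2 groups, against 1456 of 17345. For the trend, 789 of 18082 were rising with title numbers 1 to 27 only, against 1906 of 17345. The Magi2 log2 fold change at 10 µg/kg turned to -0.052 on the sense column, -0.049 without vehicle replicate 4 and -0.094 with title numbers 1 to 27 only, and ran from -0.049 to 0.17 with 1 library left out. The cause was not tested. The subsets by title number or file name were chosen after seeing the data. No paired analysis was possible because the labels give no replicate numbers. At the depth of 92 to 307 counts for Plce1, counting error adds to the spread between kidneys.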
